A study of Mus musculus with 8 samples.

Results

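The 9 genes described here, Stat2, Irf9, Irf7, Ifit1, Ifit3, Bst2, Ifi27l2a, Isg15 and Usp18, are type I interferon response genes that were chosen by symbol, and all 9 were found among the 22565 protein-coding genes of the liver expression table. They were measured in 4 livers of male C57BL/6J mice injected intraperitoneally with dexamethasone, a synthetic glucocorticoid, at 1.0 mg/kg on each of 14 days. They were compared with 4 livers of mice of the same strain, sex and age (10 weeks) that had been given saline, the vehicle, on the same schedule. The labels name no genetic change in either group, and each library was made from total RNA of liver after removal of ribosomal RNA.

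Type I interferons bind a receptor made of Ifnar1 and Ifnar2, which activates the kinases Jak1 and Tyk2. These phosphorylate Stat2, which joins Irf9 in the transcription factor complex ISGF3, and ISGF3 binds the interferon-stimulated response element, a pair of GAAA repeats in the promoters of antiviral genes. Irf7 is itself induced in this way and drives further interferon transcription. In liver the response is raised by viral infection and also runs at a low basal level without it, in hepatocytes and in resident immune and endothelial cells.

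The promoter stretches that hold this element are shown because they are what several of the 9 genes share in sequence. Windows of 300 bases, 250 before to 50 after an annotated gene start, were taken from RefSeq on GRCm38.p6, and 7 of the 9 genes had a window (Usp18 and Ifi27l2a did not). The letters searched were GAAANNGAAA and, for the other strand, TTTCNNTTTC. They were found in 5 of these 7 genes, and in 5 of their 8 windows, against 1131 of all 32851 windows (3.44%). Each stretch is written 5′ to 3′ on the strand of its gene, with the matching letters in capitals:

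Ifit1, chr19:34640770-34640828, plus strand: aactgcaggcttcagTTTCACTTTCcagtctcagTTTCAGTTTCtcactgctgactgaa

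Ifit3, chr19:34583358-34583431, plus strand: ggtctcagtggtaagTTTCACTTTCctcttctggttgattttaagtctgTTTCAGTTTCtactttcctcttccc

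Isg15, chr4:156200860-156200911, minus strand: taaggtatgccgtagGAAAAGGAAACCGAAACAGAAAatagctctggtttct

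Stat2, chr10:128270261-128270300, plus strand: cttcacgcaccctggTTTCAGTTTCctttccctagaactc

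Bst2, chr8:71537572-71537617, minus strand: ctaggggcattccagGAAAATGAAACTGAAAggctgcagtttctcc

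Ifit1 and Ifit3, neighbours on chromosome 19, each held 2 separate matches, both starting with the same 10 letters TTTCACTTTC and followed by TTTCAGTTTC. Those of Ifit1 began 104 and 85 bases before the gene start, and those of Ifit3 began 156 and 122 bases before it. Isg15 held 3 matches that overlap each other, beginning 78, 72 and 66 bases before its start. Bst2 held 2 overlapping matches, at 130 and 124 bases, and Stat2 held 1 match at 222 bases. The window of Irf7 and both windows of Irf9 held no match to these letters. Both windows of Irf9 (from 55603735 and from 55604329) lie after the GENCODE M21 start of the gene at 55603571. The bases before that start were not searched. The letters TTCNNNGAA, a form of the gamma-activated sequence that reads the same on both strands, were present in the window of Bst2 only, and in 8.3% of all windows. The letters GNACANNNTGTNC, the form of the glucocorticoid response element searched and likewise the same on both strands, were in none of the members' windows and in 0.475% of all windows. A match describes the letters and does not show a site in use.

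**Figure D1:**
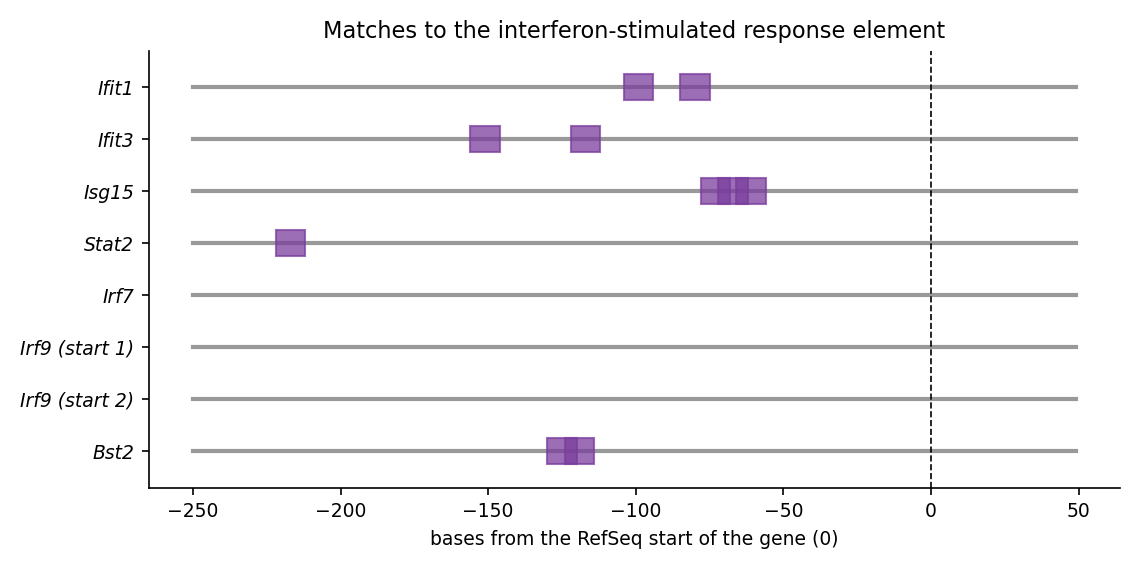
Position of matches to the interferon-stimulated response element letters in the promoter windows of the 7 genes that had one, as distance in bases from the annotated gene start (x axis), with 1 row per window. Matches lie between 222 and 66 bases before the start in Stat2, Ifit1, Ifit3, Bst2 and Isg15, and the windows of Irf7 and Irf9 are empty.

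The libraries differed in depth and in composition, which touches every value below. The fragments on protein-coding genes, inferred from the smallest step of the count columns, ranged over the dexamethasone libraries between 1361295 and 2219961 and over the vehicle libraries between 2077509 and 3360087. The gene Lars2 took 28.38% to 51.08% of these fragments with dexamethasone (51.08% in dexamethasone 4) and 14.47% to 25.31% with vehicle. The values are the authors' FPKM, by name fragments per transcript length and library size, over a denominator that is not stated. They did not follow the inferred fragments in every gene, as in Irf7 below. Over the 10221 genes tested the median log2 fold change was -0.28 as deposited. After median-ratio scaling, which sets the typical gene equal between libraries by dividing each one by a single factor, this median was -0.004. The fold changes of the tested genes among the 9 are therefore given as deposited and after this scaling. Differences were tested by limma on log2(FPKM + 1), two-sided, over the genes that reached 0.5 FPKM in 4 or more of the libraries, with Benjamini-Hochberg adjustment over all of them and a threshold of 0.05. Fold changes on this scale understate the change of low genes. An exact 0 is written as "listed at 0", because some abundant genes were also at 0: Serpina3k, a secreted liver protein, was listed at 0 in dexamethasone 1, 2 and 3 and at 4080 FPKM in dexamethasone 4. The labels give separate samples and do not say how the mice were housed or processed together, so p-values measure the spread between these libraries.

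The treatment left its mark on known glucocorticoid targets. Fkbp5, a co-chaperone of the glucocorticoid receptor, was at 64.9, 62.3, 65.0 and 46.8 FPKM in dexamethasone libraries 1 to 4, against 6.97, 7.56, 7.81 and 5.15 FPKM in vehicle libraries 1 to 4 (log2 fold change 2.95 ± 0.21 SE, limma adjusted p = 2.4e-06 as deposited; 3.33, adjusted p = 1.9e-07 after scaling). Tat, a tyrosine-degrading enzyme, rose as well (1.39, adjusted p = 0.013 as deposited and 0.0011 after scaling). Tsc22d3 (0.54, adjusted p = 0.34 as deposited; 0.93, adjusted p = 0.077 after scaling) and Per1 (0.07, adjusted p = 0.9 as deposited; 0.46, adjusted p = 0.41 after scaling) did not pass the test. Nr3c1, the glucocorticoid receptor itself, fell as deposited (-0.92, adjusted p = 0.021) and did not pass after scaling (-0.56, adjusted p = 0.097).

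Of the 9 interferon response genes, 7 passed the filter, and 3 of these, Stat2, Irf9 and Irf7, fell with dexamethasone as deposited, and 0 rose; over all genes tested 7.85% fell and 1.37% rose. These 3 genes encode the transcription factors of the set. Bst2, Isg15, Ifi27l2a and Usp18 did not pass the test, and Ifit1 and Ifit3 were too low to be tested. After median-ratio scaling 0 of the 7 passed in either direction by limma, against 3.03% lower and 3.3% higher over all genes tested, while at an unadjusted p under 0.05 4 were lower and 1 was higher, against 10.3% lower and 9.92% higher over all genes tested. As deposited 4 of the 7 were lower and 0 higher at an unadjusted p under 0.05, against 24.2% and 3.18% over all genes tested. The median log2 fold change of the 7 genes was -0.78 as deposited and -0.42 after scaling, against -0.28 and -0.004 over all genes tested. In whole liver, fewer cells of a type and less RNA per cell cannot be told apart.

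**Figure D2:**
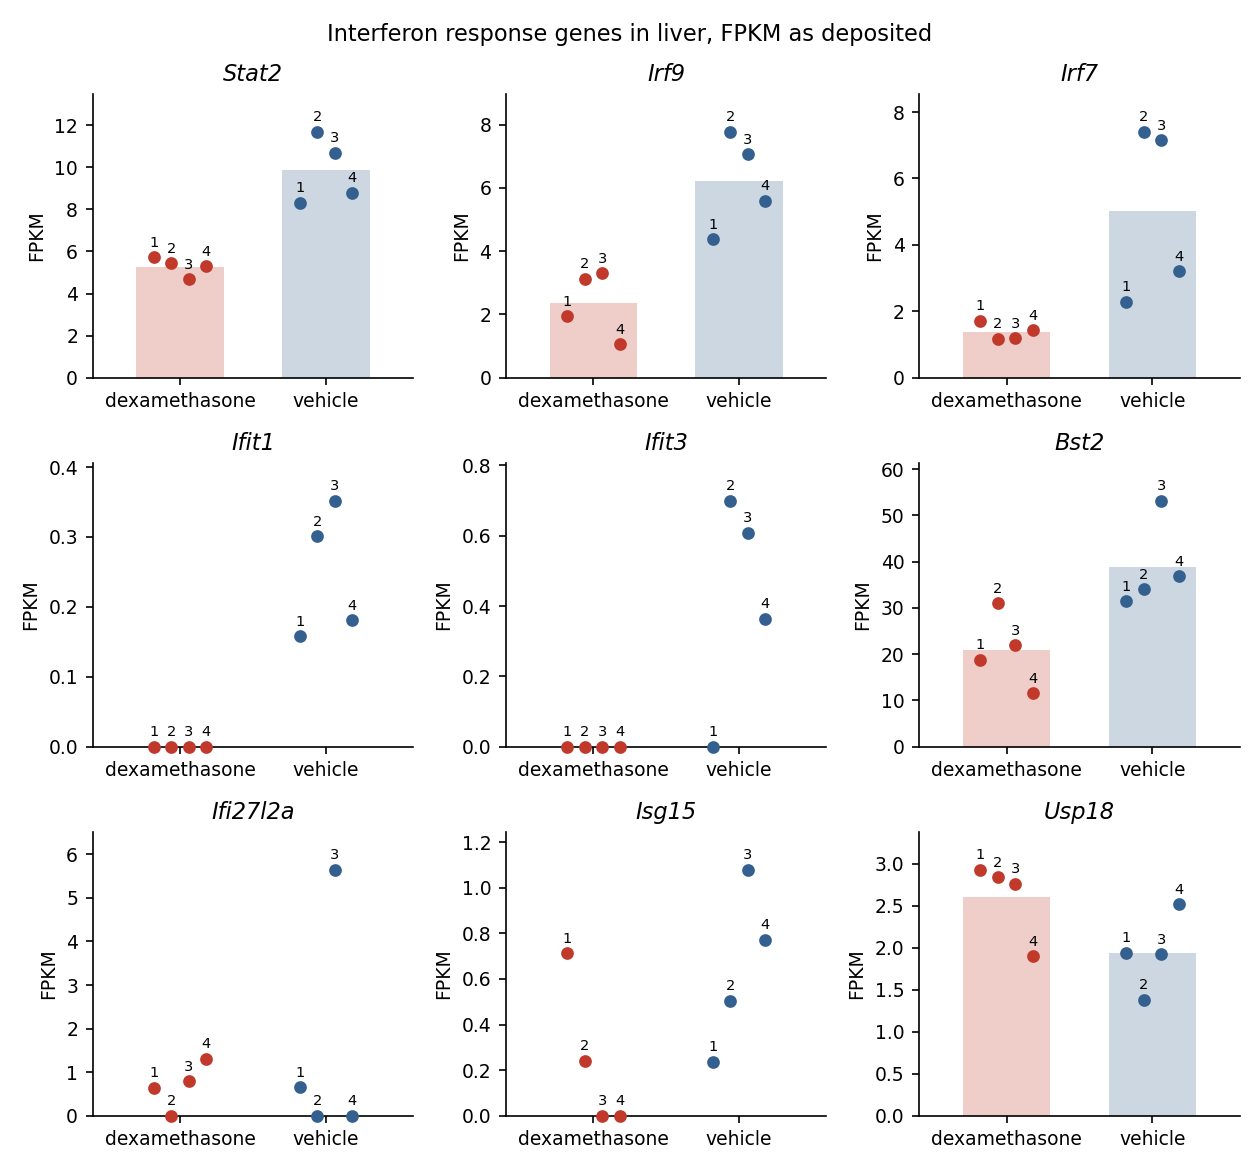
FPKM as deposited (y axis, linear, a scale for each gene) of the 9 genes in each dexamethasone and each vehicle library; points are libraries, numbered by replicate, and bars are means, drawn only where no library was listed at 0. Stat2, Irf9, Irf7 and Bst2 do not overlap between the groups, Ifit1 and Ifit3 are listed at 0 in all 4 dexamethasone libraries, and vehicle 1 is the lowest vehicle library in 7 of the 9 genes.

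Stat2 (chromosome 10, 128270559 to 128292849, plus strand, GRCm38, GENCODE M21) encodes the subunit that gives ISGF3 its activation domain. It was at 5.74, 5.43, 4.67 and 5.29 FPKM in dexamethasone libraries 1 to 4, against 8.32, 11.7, 10.7 and 8.79 FPKM in vehicle libraries 1 to 4. Every dexamethasone library lay below every vehicle library, and the dexamethasone libraries lay close together. The mean was 5.28 ± 0.451 FPKM with dexamethasone and 9.88 ± 1.59 FPKM with vehicle (SD, n = 4 each). The log2 fold change was -0.78 ± 0.20 (SE; limma adjusted p = 0.027). After scaling, dexamethasone 4, at 7.77 scaled FPKM, passed above vehicle 1 at 6.74, the groups overlapped, and the log2 fold change was -0.42 ± 0.18 (adjusted p = 0.21). Stat2 was the deepest covered of the 9 genes, with 478 inferred fragments over the dexamethasone libraries and 1140 over the vehicle libraries.

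Irf9 (chromosome 14, 55603571 to 55610030, plus strand) encodes the DNA-binding subunit of ISGF3. It was at 1.95, 3.13, 3.31 and 1.06 FPKM in dexamethasone libraries 1 to 4, against 4.38, 7.78, 7.06 and 5.60 FPKM in vehicle libraries 1 to 4. The groups did not overlap, and the lowest library was dexamethasone 4, the shallowest. The mean was 2.36 ± 1.06 FPKM with dexamethasone and 6.21 ± 1.52 FPKM with vehicle (SD, n = 4 each), with a log2 fold change of -1.13 ± 0.27 (SE; limma adjusted p = 0.022). After scaling, dexamethasone 3 (3.71 scaled FPKM) lay above vehicle 1 (3.54), and the log2 fold change was -0.83 ± 0.23 (adjusted p = 0.063). Irf9 overlaps Rnf31, a subunit of a ubiquitin ligase complex, on the same strand. The authors' table gives both genes a locus of the same extent, and the inferred fragments of Irf9 were not whole in 2 libraries (37.1 in dexamethasone 2 and 112.4 in vehicle 3), so its value is uncertain by any share of fragments counted for Rnf31. Rnf31, chosen for this reason after its values were seen, was at 3.44, 6.18, 7.43 and 2.91 FPKM in dexamethasone libraries 1 to 4 and 7.90, 13.1, 9.02 and 4.25 FPKM in vehicle libraries 1 to 4 (-0.66, adjusted p = 0.21 as deposited; -0.31, adjusted p = 0.59 after scaling).

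Irf7 (chromosome 7, 141262706 to 141266481, minus strand) encodes the factor that amplifies interferon transcription and is itself an interferon target. It was at 1.71, 1.17, 1.19 and 1.43 FPKM in dexamethasone libraries 1 to 4, against 2.29, 7.41, 7.16 and 3.20 FPKM in vehicle libraries 1 to 4. The groups did not overlap, but vehicle libraries 2 and 3 stood well above vehicle libraries 1 and 4. The mean was 1.38 ± 0.253 FPKM with dexamethasone and 5.01 ± 2.65 FPKM with vehicle (SD, n = 4 each), and the log2 fold change of -1.23 ± 0.30 (SE; limma adjusted p = 0.024) was the most negative of the 7 tested genes. After scaling, dexamethasone 4 (2.10 scaled FPKM) lay above vehicle 1 (1.85), and the log2 fold change was -0.93 ± 0.29 (adjusted p = 0.088). The values rest on 16, 12, 11 and 4 inferred fragments in dexamethasone libraries 1 to 4 and 22, 56, 68 and 29 in vehicle libraries 1 to 4. FPKM did not follow these fragments: dexamethasone 4 was at 1.43 FPKM on 4 fragments and dexamethasone 2 at 1.17 FPKM on 12. The overlap after scaling rests on dexamethasone 4 alone. Irf7 overlaps the end of Phrf1 on the opposite strand, the authors' table gives both genes a locus of the same extent, and the sources used here do not say whether counting used strand. Phrf1 was at 6.45, 6.53, 6.25 and 4.98 FPKM in dexamethasone libraries 1 to 4 and 8.35, 6.42, 4.70 and 8.46 FPKM in vehicle libraries 1 to 4 (-0.16, adjusted p = 0.68). After scaling its sign turned (0.20, adjusted p = 0.66).

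The calls of these 3 genes rested on a few libraries as deposited. Without vehicle 2 the adjusted p was 0.089 for Stat2, 0.081 for Irf7 and 0.076 for Irf9, and without vehicle 3 it was 0.082 for Stat2, 0.073 for Irf7 and 0.063 for Irf9, so that 0 of the 9 genes passed in either fit. Without dexamethasone 3 only Irf9 passed. Without dexamethasone 4, the library with the highest Lars2 share, all 3 passed. In the fit without the filter on low values Stat2 passed (adjusted p = 0.031), and Irf7 (0.068) and Irf9 (0.055) did not. After scaling, Irf9 and Irf7 passed when vehicle 1 was left out, and Irf9 when dexamethasone 3 was.

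Ifit1 and Ifit3 encode cytoplasmic proteins with tetratricopeptide repeats, of which Ifit1 binds viral RNA with foreign 5′ ends and Ifit3 is known to stabilise it in human cells. Ifit1 (chromosome 19, 34640871 to 34650009, plus strand) was listed at 0 in all 4 dexamethasone libraries, against 0.158, 0.301, 0.352 and 0.181 FPKM in vehicle libraries 1 to 4. These vehicle values stand for 2, 5, 7 and 3 inferred fragments, so the groups did not overlap, yet at a depth near the limit of detection. Ifit3 (chromosome 19, 34583531 to 34588731, plus strand) was likewise listed at 0 in all 4 dexamethasone libraries, against 0 in vehicle 1 and 0.700, 0.609 and 0.364 FPKM in vehicle libraries 2 to 4. Those 3 libraries held 8, 9 and 4 fragments, and vehicle 1 could not be told from the dexamethasone libraries.

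Among the 15758 genes above 0 in at least 1 library, 48 (0.305%) were like Ifit1 in being above 0 in all 4 vehicle libraries and at 0 in all 4 dexamethasone libraries. With 3 or 4 vehicle libraries above 0, which also takes in Ifit3, the number was 143 (0.907%), and the reverse pattern, all 4 dexamethasone libraries above 0 and all 4 vehicle libraries at 0, was met by 11 genes (0.0698%). In a limma fit without the filter Ifit1 passed (adjusted p = 0.028 as deposited and 0.028 after scaling) and Ifit3 did not (0.11 as deposited and 0.14 after scaling); of the 15758 genes in that fit 3.09% were lower and 0.717% higher as deposited, and 1.43% lower and 1.59% higher after scaling. Ifit1 and Ifit3 have near copies among which reads could be divided. The copy Ifit3b, listed as I830012O16Rik, was above 0 in dexamethasone 1 (0.0833 FPKM) and vehicle 2 (0.158 FPKM) only. Ifit2, the neighbouring family member, was at 0.300, 0.274, 0.242 and 0.0585 FPKM in dexamethasone libraries 1 to 4 and 0.223, 0.432, 0.515 and 0.259 FPKM in vehicle libraries 1 to 4, and the groups overlapped.

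Bst2 (tetherin; chromosome 8, 71534255 to 71537456, minus strand) is a membrane protein that holds budding virions at the cell surface. It was at 18.8, 31.0, 21.9 and 11.5 FPKM in dexamethasone libraries 1 to 4, against 31.5, 34.0, 53.2 and 36.9 FPKM in vehicle libraries 1 to 4. The groups touched without overlapping, dexamethasone 2 lying just under vehicle 1. The mean was 20.8 ± 8.06 FPKM with dexamethasone and 38.9 ± 9.80 FPKM with vehicle (SD, n = 4 each). The log2 fold change of -0.92 ± 0.28 (SE) missed the threshold (limma adjusted p = 0.055), and after scaling it was -0.53 ± 0.22 (adjusted p = 0.21). Without dexamethasone 2 it passed as deposited (adjusted p = 0.024). Stat2, Irf9, Irf7 and Bst2 were thus the 4 tested genes of the set whose groups did not overlap with lower dexamethasone values as deposited, as 16.2% of all tested genes did. After scaling 0 of the 7 did so, against 7.11% of all tested genes.

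Ifi27l2a (chromosome 12, 103442167 to 103443680, minus strand) encodes a small membrane protein of the Ifi27 family. It was at 0.641, 0.790 and 1.31 FPKM in dexamethasone libraries 1, 3 and 4 and listed at 0 in dexamethasone 2, against 0.654 and 5.65 FPKM in vehicle libraries 1 and 3 and 0 in vehicle libraries 2 and 4. A single library, vehicle 3, held 12 of its 13 vehicle fragments, and the dexamethasone libraries held 3 in all. The log2 fold change was -0.17 ± 0.50 (SE; limma adjusted p = 0.85), and its sign turned without vehicle 3 (0.45), without dexamethasone 2 (0.06) and after scaling (0.02). The authors' table gives it a locus shared with Ifi27. Ifi27 itself was at 14.6, 16.3, 15.2 and 13 FPKM in dexamethasone libraries 1 to 4, against 26.5, 31.4, 43.5 and 23.7 FPKM in vehicle libraries 1 to 4. It fell by 1.00 ± 0.22 on the log2 scale as deposited (adjusted p = 0.014) and did not pass after scaling (-0.61, adjusted p = 0.074), although the groups did not overlap on either scale. The neighbouring copy Ifi27l2b was at 0.304, 0.309, 0.393 and 0 FPKM in dexamethasone libraries 1 to 4 and 0.433, 0.817, 0.910 and 0.512 FPKM in vehicle libraries 1 to 4.

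Isg15 and Usp18 belong to the same protein-tagging system: Isg15 is a ubiquitin-like modifier, and Usp18 removes it from its targets and also blocks the receptor at Ifnar2. Isg15 (chromosome 4, 156199424 to 156200818, minus strand) was at 0.712 and 0.242 FPKM in dexamethasone libraries 1 and 2 and listed at 0 in dexamethasone libraries 3 and 4, against 0.236, 0.505, 1.08 and 0.772 FPKM in vehicle libraries 1 to 4. The groups overlapped, and the values stand for 3, 1, 0 and 0 inferred fragments with dexamethasone and 1, 2, 6 and 3 with vehicle. Its log2 fold change was -0.42 ± 0.22 (SE; limma adjusted p = 0.24) as deposited and -0.34 (adjusted p = 0.44) after scaling.

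Usp18 (chromosome 6, 121245906 to 121270917, plus strand; it overlaps the non-coding gene Gm44148 on the opposite strand) was the single tested gene of the 7 with a higher mean with dexamethasone as deposited. It was at 2.93, 2.84, 2.76 and 1.90 FPKM in dexamethasone libraries 1 to 4, against 1.94, 1.38, 1.92 and 2.52 FPKM in vehicle libraries 1 to 4. Dexamethasone libraries 1, 2 and 3 lay above every vehicle library, and dexamethasone 4 lay among the vehicle libraries. Higher dexamethasone values with no overlap were found as deposited in 2.18% of all tested genes and in 0 of the 7. The mean was 2.61 ± 0.476 FPKM with dexamethasone and 1.94 ± 0.467 FPKM with vehicle (SD, n = 4 each), with a log2 fold change of 0.30 ± 0.22 (SE; limma adjusted p = 0.39). After scaling it was at 3.08, 2.72, 3.10 and 2.79 scaled FPKM in dexamethasone libraries 1 to 4, against 1.57, 1.08, 1.61 and 2.52 in vehicle libraries 1 to 4. On this scale the groups no longer overlapped, as 7.31% of all tested genes did with higher dexamethasone values, but the difference did not pass (0.57 ± 0.20, adjusted p = 0.12). With 86 inferred fragments over the dexamethasone libraries and 78 over the vehicle libraries, Usp18 was the single gene of the 9 with more fragments in the dexamethasone libraries, whose summed depth was 7482029 fragments, against 9996195 in the vehicle libraries.

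**Figure D3:**
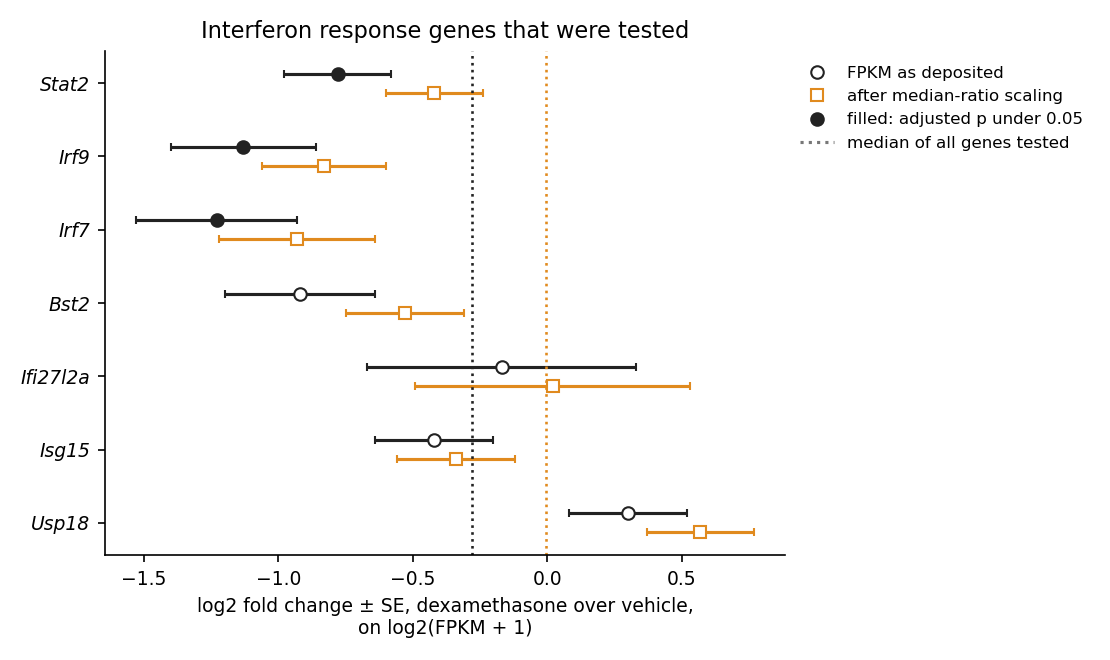
Log2 fold change of the 7 tested genes, dexamethasone over vehicle, on the log2(FPKM + 1) scale, as deposited and after median-ratio scaling; bars are standard errors, and the dotted lines mark the median of all tested genes on each scale. Irf7, Irf9 and Bst2 have the most negative values on both scales (-1.23, -1.13 and -0.92 as deposited), and Usp18 is positive on both.

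The order of the levels in FPKM, by name a measure per length, was similar in both groups. The places of Irf7, Irf9 and Ifi27l2a are less certain, because the authors' table gives each a locus shared with a neighbour. The FPKM of Irf7 also did not follow its inferred fragments. Bst2 was highest in each, at 20.8 FPKM with dexamethasone and 38.9 FPKM with vehicle, and Stat2 was second, apart from its neighbours by more than their spread. With dexamethasone Usp18 (2.61 ± 0.476 FPKM) and Irf9 (2.36 ± 1.06 FPKM) came next and could not be ranked against each other. With vehicle Irf9 (6.21 ± 1.52 FPKM) and Irf7 (5.01 ± 2.65 FPKM) came next and could not be ranked either, and both stood above Usp18 (1.94 ± 0.467 FPKM) in mean, although vehicle 1 held Irf7 at 2.29 FPKM and vehicle 4 held Usp18 at 2.52 FPKM. Ifi27l2a, Isg15, Ifit3 and Ifit1 were the lowest in both groups.

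Vehicle libraries differed from each other in these genes. Vehicle 1 was the lowest of the 4 vehicle libraries in 7 of the 9 genes, both as deposited and after scaling, whereas it was lowest in 18.5% of all tested genes as deposited and in 25.8% after scaling. The exceptions were Usp18 and Ifi27l2a. Vehicle 2 or vehicle 3 was highest in 8 of the 9, and vehicle 4 in Usp18. Vehicle 1 was also the vehicle library with the lowest Lars2 share (14.47%), and the part of that difference in the levels of these genes was not tested. After removal of each group's mean, the pairs of tested genes had correlations over the 8 libraries from -0.36 to 0.78 with a median of 0.16, over 21 pairs. The highest were Stat2 with Irf7 (0.78) and Irf9 with Bst2 (0.69). These are descriptions over libraries that share depth and scaling. The genes outside the set whose levels followed the mean of the standardized tested genes most closely over the 8 libraries, on the same values with group means removed, were Sgsm3 (r = 0.97), Plagl1 (0.96), Pik3ap1, Ndufc1, Tsn and Sf3b1 (0.95 each), of 10214 genes ranked. None of these 6 passed the limma test between the groups, with adjusted p from 0.087 (Plagl1) to 0.88 (Sf3b1) as deposited and 0.1 (Sgsm3) to 1 (Pik3ap1) after scaling. The mean they followed ran from -0.13 to 0.16 in the dexamethasone libraries and was -1.02, -0.22, 0.9 and 0.34 in vehicle libraries 1 to 4. These correlations thus rest mostly on the vehicle libraries, are the highest of 10214, and were not tested.

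The rest of the pathway was read from lists arranged by role, 130 genes in the table and 74 of them tested. As deposited 15 fell and 0 rose by limma, and after scaling 5 fell and 1 rose. The 15 are 20.3% of the 74, against 7.85% over all genes tested, and the 5 are 6.76%, against 3.03%. The median log2 fold change of the 74 was -0.45 as deposited and -0.17 after scaling. Without the interferon-inducible GTPases, 10 of 66 fell as deposited (15.2%) and 2 after scaling (3.03%). Ddx58, Ddx60, Irgm2, Igtp and Iigp1 fell on both scales. Of these, Irgm2 met the filter of 0.5 FPKM through its vehicle libraries only. Gbp4, among the 15 that fell as deposited, did so too, and the shares of the pathway genes that fell are not free of this choice.

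Interferon genes themselves were hardly seen. Of 19 ligand genes found, 18 were listed at 0 in all 8 libraries, and the remaining one, Ifnk, was at 1.31, 0.320, 0.556 and 0.713 FPKM in dexamethasone libraries 1 to 4, against 0, 0.486, 0.784 and 0.484 FPKM in vehicle libraries 1 to 4 (0.26, limma adjusted p = 0.48 as deposited; 0.40, adjusted p = 0.36 after scaling). Among the receptors and Janus kinases 0 of 8 tested genes passed by limma on either scale. At an unadjusted p under 0.05 3 of the 8 were lower as deposited, against 24.2% of all genes tested, and after scaling 0 were lower and 1 was higher, against 10.3% and 9.92% of all genes tested. Ifnar2, the receptor chain to which Usp18 binds, was at 12.7, 11.5, 11.7 and 6.53 FPKM in dexamethasone libraries 1 to 4, against 22.4, 13.1, 22.2 and 13 FPKM in vehicle libraries 1 to 4. These groups did not overlap as deposited, and the log2 fold change was -0.67 (adjusted p = 0.12) as deposited and -0.29 (adjusted p = 0.48) after scaling. Jak2, a kinase of the interferon gamma receptor, had a log2 fold change of -0.52 (adjusted p = 0.12) as deposited and -0.28 (adjusted p = 0.39) after scaling.

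Among the other transcription factors of the pathway, 1 of 7 tested genes (14.3%) fell as deposited and 0 after scaling by limma. Over all genes tested 7.85% fell as deposited and 3.03% after scaling. After scaling 2 of these factors were lower and 1 higher at an unadjusted p under 0.05, against 10.3% lower and 9.92% higher over all genes tested. The gene that fell was Irf1, a factor induced by interferon gamma, at 1.91, 3.53, 1.23 and 2.65 FPKM in dexamethasone libraries 1 to 4, against 10.5, 7.85, 4.80 and 5.74 FPKM in vehicle libraries 1 to 4. Its groups did not overlap on either scale, with a log2 fold change of -1.30 ± 0.28 (SE; adjusted p = 0.013) as deposited and -0.97 (adjusted p = 0.056) after scaling.

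Over all genes tested 7.85% fell as deposited and 3.03% after scaling. Of the sensors of viral nucleic acids and their adaptors, 1 of 9 tested genes (11.1%) fell, on both scales. It was Ddx58, which encodes the RNA helicase RIG-I and is itself induced by interferon, at 2.03, 1.96, 1.50 and 0.656 FPKM in dexamethasone libraries 1 to 4, against 6.43, 6.19, 4.73 and 5.07 FPKM in vehicle libraries 1 to 4. All dexamethasone libraries lay far below all vehicle libraries, with a log2 fold change of -1.41 ± 0.24 (SE; limma adjusted p = 0.0037) as deposited and -1.13 (adjusted p = 0.0056) after scaling. Ikbke, a kinase that activates Irf3 and Irf7, had a log2 fold change of -0.69 (adjusted p = 0.11) as deposited and -0.34 (adjusted p = 0.49) after scaling.

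Among the antiviral effectors outside the 9 genes, 7 of 32 tested genes fell as deposited (21.9%, against 7.85% of all genes tested). After scaling 1 fell (3.12%, against 3.03% of all genes tested) and 1 rose, against 3.3% of all genes tested. Ddx60, a helicase that works with RIG-I, was at 0.860, 0.195, 0.875 and 0.128 FPKM in dexamethasone libraries 1 to 4, against 2.49, 1.77, 2.46 and 1.53 FPKM in vehicle libraries 1 to 4. It fell on both scales (-1.04 ± 0.23, adjusted p = 0.016 as deposited; -0.85, adjusted p = 0.046 after scaling). Eif2ak2, the kinase PKR that stops translation on double-stranded RNA, was at 2.20, 0.324, 0.578 and 1.07 FPKM in dexamethasone libraries 1 to 4, against 3.47, 4.74, 3.07 and 4.11 FPKM in vehicle libraries 1 to 4 (-1.32 ± 0.28, adjusted p = 0.011 as deposited; -1.04, adjusted p = 0.056 after scaling). With Ifi27, the others that fell as deposited only were Parp14 (-0.87, adjusted p = 0.034), Rtp4 (-0.89, adjusted p = 0.04), Lgals3bp (-0.73, adjusted p = 0.046) and Helz2 (-0.66, adjusted p = 0.048). After scaling these 4 were at -0.58 (Parp14, adjusted p = 0.13), -0.67 (Rtp4, 0.17), -0.37 (Lgals3bp, 0.25) and -0.28 (Helz2, 0.41). Ifitm2, which restricts virus entry, was at 42.4, 35.4, 40.6 and 17.3 FPKM in dexamethasone libraries 1 to 4, against 25.5, 20.6, 27.7 and 22.1 FPKM in vehicle libraries 1 to 4. It rose after scaling only (0.81, adjusted p = 0.038; 0.41, adjusted p = 0.34 as deposited). A further 19 effectors were, like Ifit1 and Ifit3, above 0 but below the filter, and 16 of them had a lower mean with dexamethasone (84.2%), against 64.4% of all 5537 such genes; 3 of the 19 were listed at 0 in all dexamethasone libraries (15.8%), against 22.5% of all such genes.

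Around Isg15, the enzymes that attach it gave 1 call among 3 tested genes (33.3%) as deposited and 0 after scaling by limma. The shares lower over all genes tested were 7.85% and 3.03%. At an unadjusted p under 0.05 3 of the 3 enzymes were lower as deposited, against 24.2% of all genes tested, and 1 after scaling, against 10.3%. Trim25, a ligase for Isg15 and an activator of RIG-I, was at 2.55, 2.25, 2.43 and 1.66 FPKM in dexamethasone libraries 1 to 4, against 6.08, 6.16, 6.41 and 2.73 FPKM in vehicle libraries 1 to 4. It fell as deposited (-0.93 ± 0.26, adjusted p = 0.039) and did not pass after scaling (-0.61, adjusted p = 0.11), and vehicle 4 stood near the dexamethasone libraries. Uba7, the activating enzyme for Isg15, had a log2 fold change of -0.68 (adjusted p = 0.14) as deposited and -0.36 (adjusted p = 0.45) after scaling. Among the negative regulators other than Usp18, 0 of 6 tested genes passed by limma, and 0 reached an unadjusted p under 0.05 on either scale; the smallest p as deposited belonged to Nlrx1 (-0.32, adjusted p = 0.29, and -0.15, 0.74 after scaling) and Socs3 (-0.64, adjusted p = 0.32, and -0.46, 0.61 after scaling). The interferon-inducible GTPases are driven mainly by interferon gamma in the mouse. Of these, 5 of 8 tested genes fell as deposited (62.5%) and 3 after scaling (37.5%), against 7.85% and 3.03% of all genes tested. At an unadjusted limma p under 0.05 6 of the 8 were lower as deposited, against 24.2% of all genes tested. After scaling 6 were lower, against 10.3%. Higher genes numbered 0 as deposited, against 3.18%, and 1 after scaling, against 9.92%. It was Irgm1, whose groups did not overlap after scaling (0.37, adjusted p = 0.38 as deposited, and 0.72, 0.091 after scaling). Iigp1 fell on both scales (-1.95 as deposited, -1.60 after scaling). Igtp (-1.54 as deposited, -1.29 after scaling) and Irgm2 (-1.40 as deposited, -1.20 after scaling) also fell on both scales. Gbp7 (-0.71) and Gbp4 (-0.56) fell as deposited only, with -0.54 and -0.43 after scaling. Irgm2 and Gbp4 reached 0.5 FPKM in vehicle libraries only. They met the filter through the group where they were higher, so the counts of GTPases that fell are not free of this choice.

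The element letters were set against the calls across the whole table, a comparison added after the values were seen and given as a description. Of the genes with the letters in a window, 5 members left out, 272 were tested and 34 were lower as deposited (12.5%), against 587 of 7705 tested genes with any window (7.62%). After scaling 12 were lower (4.41%), against 224 (2.91%), and the median log2 fold change of the 272 genes was -0.05. Genes of the pathway lists were not left out of this set, so its shares are not independent of their calls given above. The part of those genes in these shares was not tested. Among the pathway lists the letters were in the windows of 9 of 9 GTPases, 19 of 42 effectors, 11 of 20 ligands and 3 of 11 sensors, but in 0 of 8 receptors and kinases and 0 of 4 enzymes of Isg15 attachment. Among the 9 genes, Irf9 and Irf7 fell as deposited without these letters in their windows, and Isg15, with 3 overlapping matches, did not pass. For Irf9 the bases before its GENCODE start were not searched.

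Immune and other liver cells were read from marker lists, as summed FPKM per library. The Kupffer cell or macrophage markers, of which 10 of 11 were tested and 0 passed by limma, summed to 30.6 to 38.4 FPKM with dexamethasone and 28.6 to 58.1 FPKM with vehicle, and after scaling to 34.2 to 44.9 with dexamethasone and 28.6 to 47.0 with vehicle. The plasmacytoid dendritic cell markers, the cell type best known for making type I interferon, summed to 0 to 0.366 FPKM with dexamethasone and 0.543 to 1.57 FPKM with vehicle. They did not overlap on either scale, though all 6 were below the filter and Klk1 and Cox6a2 were at 0 in all 8 libraries. B cell markers, also untested, summed to 0 in every dexamethasone library and to 0.578 to 1.02 FPKM with vehicle. Both sums lie near the limit of detection. Of all 5537 genes above 0 but below the filter, 22.5% were listed at 0 in all dexamethasone libraries. Outside Lars2 the dexamethasone libraries held 665937 to 1581778 inferred fragments, against 1636132 to 2571865 in the vehicle libraries. Sums for T cells (0 to 0.467 FPKM with dexamethasone, 0.254 to 1.18 FPKM with vehicle), NK cells (0 with dexamethasone, 0 to 1.20 FPKM with vehicle), conventional dendritic cells (2.60 to 2.86 FPKM with dexamethasone, 2.66 to 6.29 FPKM with vehicle), monocytes and neutrophils overlapped. Sums of sinusoidal endothelial markers overlapped as deposited (49.5 to 81.9 FPKM with dexamethasone, 59.1 to 77.1 FPKM with vehicle). After scaling they were higher with dexamethasone (67.3 to 81.7 against 49.9 to 64.5 scaled FPKM). Of the 8 markers, all tested by limma, 1 was lower and 1 higher as deposited, against 7.85% and 1.37% of all genes tested. After scaling 0 were lower and 3 higher, against 3.03% and 3.3%. Hepatocyte markers, all 6 of them tested, summed to 8540 to 15900 FPKM with dexamethasone and 15000 to 21700 FPKM with vehicle, and after scaling to 12600 to 17000 with dexamethasone and 11700 to 17500 with vehicle. These sums overlapped on both scales, with 0 markers called as deposited and 1 higher after scaling. The part that these cell types have in the levels of the interferon response genes was not tested.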

How the data were processed

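Liver RNA of 4 dexamethasone and 4 vehicle mice was measured. Per the labels' protocols, ribosomal RNA was depleted and stranded libraries were made. The submitters' processing notes name CASAVA 1.8, TopHat2 and the human build hg19; the identifiers, symbols and loci are mouse ones, and the counting tool is not given in the sources used here. Per the file headers, 8 columns hold FPKM, computed by the authors over a denominator that is not stated. The 8 columns headed as counts were deposited by the authors as scaled values and are treated here as a signal: between 93.2% and 95.4% of the low values of a library (below 500 steps) were whole multiples of its smallest step, within 0.01 of a step, and dividing by it gave the inferred fragments. No molecular identifiers are described, so fragments are not independent molecules. The table holds protein-coding genes only, so the inferred fragments, 1361295 to 3360087 per library, are not the whole depth, and a gene such as Irf7 rests on as few as 4 fragments in a library.

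Differences between the groups came from limma 3.58.1 in R 4.3.3 (lmFit and eBayes with a trend) on log2(FPKM + 1), with treatment as the single term, over the 10221 genes at or above 0.5 FPKM in 4 libraries. P-values were two-sided and adjusted by Benjamini-Hochberg over those genes, with a threshold of 0.05. Median-ratio factors came from genes above 0 in every library. The steps were tested on simulated data. The 9 genes, the pathway and marker lists and the tests were chosen with earlier results of these data known. Named genes were the 9 genes, every pathway gene past the threshold on either scale, the up to 2 of smallest p in each list, 5 genes that check the treatment, and the 6 genes most like the set. A pathway gene that this rule names is not reported here. Rnf31, Phrf1, Serpina3k, Lars2, Ifit2, Ifit3b, Ifi27l2b, Mx1, Mx2, Herc6, Irgm1, Oas1g and Oas3 were named with their values known. The fits were repeated with a pseudocount of 0.1 or 0.5, without the filter or with 1 FPKM as its minimum, and with median-ratio scaling, quantile normalization, the replicate number as a block, the count columns instead of FPKM, or each library left out in turn; no filter together with median-ratio scaling was added after seeing the data. Gene positions are from GENCODE M21 on GRCm38 and promoter windows from RefSeq on GRCm38.p6.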

Additional observations from a re-analysis of the deposited data

Results flagged for a closer look

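In a group of 4 libraries a value was singled out when its gap to the nearest other library, divided by the group's range, exceeded 0.829, a rule that chance meets in about 1 of 20 groups. Usp18 in dexamethasone 4 was low, at 1.9 FPKM, against 2.76 to 2.93 FPKM in the other dexamethasone libraries; after scaling it was at 2.79, among them. Ifi27l2a in vehicle 3 was high, at 5.65 FPKM on 12 inferred fragments. The Lars2 share of fragments in vehicle 1 was low, at 14.47%.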

How the results depend on the processing

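Scaling between libraries changed the calls most. With 802 genes lower and 140 higher as deposited, there were 310 lower and 337 higher after median-ratio scaling, and 335 and 335 after quantile normalization. The replicate block with median-ratio scaling gave 192 lower and 243 higher, and no filter with median-ratio scaling 226 and 251. No filter alone gave 487 lower. The count columns instead of FPKM gave 1194 lower and 230 higher. Of the interferon response genes 3 were lower as deposited, against 0 after median-ratio scaling, quantile normalization or the replicate block with median-ratio scaling, and 1 (Ifit1) with no filter and median-ratio scaling.

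Stat2 lost its call in these fits, at -0.42 (adjusted p = 0.21), -0.46 (0.15), -0.42 (0.27) and -0.42 (0.24). Irf7 did so at -0.93 (0.088), -0.95 (0.082), -0.93 (0.15) and -0.93 (0.16), and at -1.23 (0.068) with no filter alone. Irf9 did so at -0.83 (0.063), -0.84 (0.058), -0.83 (0.069) and -0.83 (0.11), and at -1.13 (0.055) with no filter alone, where more genes were tested. With the count columns instead of FPKM, 4 of the interferon response genes were lower, against 11.7% of all genes tested. In that fit Stat2 (-0.82, limma adjusted p = 0.0046), Irf7 (-1.45, 0.0045) and Irf9 (-1.26, 0.003) kept their calls. Without median-ratio scaling, differences in library composition stay in that fit. Bst2 gained a call with the filter of 1 FPKM (-0.92, adjusted p = 0.049), the replicate block (-0.92, 0.05 after rounding) and the scaled fragment counts (-0.87, 0.042). The sign of Ifi27l2a turned with a pseudocount of 0.1 (0.28), median-ratio scaling (0.02), quantile normalization (0.03), the replicate block with median-ratio scaling (0.02) and no filter with median-ratio scaling (0.02). The difference of mean log2 values of Ifit1 was -0.32 with a pseudocount of 1, -0.57 with 0.5 and -1.76 with 0.1, and that of Ifit3 was -0.47 with 1 and -2.01 with 0.1. The cause of these changes was not tested. Usp18 and Isg15 kept their direction and passed the threshold in none of the fits run.

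With each library left out in turn, as deposited or after median-ratio scaling, the fits gave 107 to 314 genes higher, 183 to 866 lower and 0 to 4 of the interferon response genes lower. The log2 fold changes ran from -0.85 to -0.36 for Stat2, -1.48 to -0.75 for Irf7, -1.27 to -0.69 for Irf9, -1.13 to -0.38 for Bst2 and -0.46 to 0.59 for Ifi27l2a. As deposited, 459 genes were lower without dexamethasone 3, 423 without vehicle 1, 367 without vehicle 2 and 404 without vehicle 3.

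Dexamethasone and vehicle libraries of the same number did not deviate together (correlations of -0.02 to 0.02), and the closest dexamethasone library bore the same number for 0 of the vehicle libraries, so no pairing was used; the replicate block gave 956 genes lower and 159 higher, and 4 of the interferon response genes lower. The edgeR and DESeq2 tests planned for recovered fragments were not run, because the count columns did not resolve into whole fragments throughout. Depth limits Ifit1, Ifit3, Isg15 and Ifi27l2a, which hold at most 12 fragments in any library.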

Other observations

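Some well-known interferon markers of the pathway lists lay below the filter, and a few, picked with their values known, are given as values only. Of the 19 antiviral effectors above 0 but below the filter, 16 had a lower mean with dexamethasone and 3 a higher one. Oas1g (mean 0.342 FPKM with dexamethasone, 0.104 with vehicle) and Oas3 (0.0817 with dexamethasone, 0.0795 with vehicle) were among the 3. Mx2, a dynamin-like antiviral GTPase, was at 0.279, 0.0782, 0.171 and 0.000471 FPKM in dexamethasone libraries 1 to 4, against 0.293, 0.353, 0.363 and 0.800 FPKM in vehicle libraries 1 to 4. Its groups did not overlap as deposited and overlapped after scaling. Herc6, the ligase known to attach Isg15 in the mouse, was at 0.288, 0.274, 0.249 and 0.281 FPKM in dexamethasone libraries 1 to 4, against 0.889, 0.940, 0.494 and 0.730 FPKM in vehicle libraries 1 to 4. Its dexamethasone libraries lay close together below all vehicle libraries as deposited, and the groups overlapped after scaling. In the limma fit without the filter its adjusted p was 0.069 as deposited and 0.19 after scaling. Mx1 was listed at 0 in all 4 dexamethasone libraries and in vehicle libraries 1, 2 and 4, and was at 0.448 FPKM in vehicle 3.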
